A study of Mus musculus with 4 samples.

Results

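The tubule barcodes of the 2 control libraries were compared with each other. A barcode stands for 1 droplet of a single-cell library, and its depth is counted in unique molecular identifiers (UMIs), each standing for 1 captured transcript. Members were the barcodes of the control table in which Pecam1, Cdh5, Kdr and Tie1 together held fewer than 12 of every 10000 UMIs and in which Slc34a1, Lrp2, Slc12a1 and Slc12a3 together had 3 or more UMIs. By this rule 3381 of the 4414 control barcodes were members, out of 10535 barcodes in all 4 libraries. Barcodes ending in 1 (control library 1) gave 2094 members of 2406 barcodes, or 87.0% (exact binomial 95% interval 85.6 to 88.3). Barcodes ending in 2 (control library 2) gave 1287 of 2008, or 64.1% (62.0 to 66.2).

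The study set angiotensin II hypertension (A2 HTN) and salt sensitive hypertension (SS HTN) each against its own control. All 4 groups were kidneys of C57BL/6J mice aged 10 to 14 weeks. The A2 Ctrl mice received saline and the SS Ctrl mice a normal diet. Kidneys of a group were pooled, dissociated and selected on magnetic beads, first for CD31 and then for podoplanin, surface proteins of blood and lymphatic endothelium, so each group is 1 library of pooled animals and tubule cells were not the selected target. The labels do not say which ending belongs to which control, so the libraries are called 1 and 2, and model, mice, handling and sequencing cannot be told apart between them. With 1 library on each side there is no replicate check and no test. Every interval covers counting error only.

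Tubule epithelium reclaims most of what the glomerulus filters. The proximal tubule takes up phosphate through Slc34a1 and proteins through the receptor megalin (Lrp2), the thick ascending limb takes up salt through Slc12a1, and the distal convoluted tubule through Slc12a3. The renal cortex also holds macrophages and dendritic cells that present antigen on MHC class II molecules, and male mouse proximal tubule expresses a set of androgen-dependent genes.

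The 4 promoters printed here belong to genes past 2-fold in the comparison and are shown because each pair has a motif in common. They are RefSeq promoters of GRCm38.p6, from 250 bases before to 50 after the start, 5′ to 3′ on the gene's strand. H2-Eb1 (chr17:34305617-34305916, plus strand) and H2-Aa (chr17:34287774-34288073, minus strand) encode MHC class II chains and were higher in control library 2. Capitals mark CTGATTGG, the class II Y box, which was present on either strand in 4.1% of 32851 promoters of this length.
H2-Eb1: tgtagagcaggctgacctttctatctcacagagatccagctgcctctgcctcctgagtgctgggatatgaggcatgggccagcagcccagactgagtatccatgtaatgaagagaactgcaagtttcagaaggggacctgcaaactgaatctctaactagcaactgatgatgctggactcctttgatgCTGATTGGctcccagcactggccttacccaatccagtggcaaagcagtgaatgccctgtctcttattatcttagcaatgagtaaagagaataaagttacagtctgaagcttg
H2-Aa: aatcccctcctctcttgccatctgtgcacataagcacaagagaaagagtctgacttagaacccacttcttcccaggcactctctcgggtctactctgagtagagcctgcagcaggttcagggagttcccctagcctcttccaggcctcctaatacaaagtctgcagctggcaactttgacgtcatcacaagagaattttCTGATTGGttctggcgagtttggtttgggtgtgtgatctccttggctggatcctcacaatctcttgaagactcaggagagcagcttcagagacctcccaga
Trim30a (chr7:104465144-104465443, minus strand; the first of 2 entries) and Trim12c (chr7:104353300-104353599, minus strand) encode tripartite-motif proteins of the interferon-inducible kind and were higher in control library 1. Capitals mark, read on the other strand, the core of the interferon-stimulated response element, searched as GAAA, any 2 bases and GAAA again. It was present on either strand in 3.44% of the same promoters. These matches describe the sequence and are not measured binding.
Trim30a: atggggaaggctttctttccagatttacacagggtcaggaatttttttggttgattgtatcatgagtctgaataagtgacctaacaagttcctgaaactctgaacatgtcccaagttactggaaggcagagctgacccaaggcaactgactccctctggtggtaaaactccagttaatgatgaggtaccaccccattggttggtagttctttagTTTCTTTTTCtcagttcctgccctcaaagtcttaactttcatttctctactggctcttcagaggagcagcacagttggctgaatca
Trim12c: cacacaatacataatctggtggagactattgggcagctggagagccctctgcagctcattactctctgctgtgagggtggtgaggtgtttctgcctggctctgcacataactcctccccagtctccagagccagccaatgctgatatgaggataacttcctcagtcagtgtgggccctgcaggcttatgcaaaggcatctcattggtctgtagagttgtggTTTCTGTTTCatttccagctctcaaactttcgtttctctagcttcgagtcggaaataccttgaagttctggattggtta

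The members of the libraries differed in depth. Control library 1 gave a median of 1048 UMIs and 857 genes per tubule barcode and 2551548 UMIs in all, 91.1% of that library. Control library 2 gave a median of 577 UMIs and 492 genes and 977687 UMIs, 56.6% of that library. In control library 2, 484 members had fewer than 500 UMIs, against 107 in control library 1. No mitochondrial gene is listed in the table, so that sign of cell quality was not available. The libraries had 2 barcodes in common, 1 of them a member.

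Near the rule's limits, 122 members of control library 1 and 174 of control library 2 had exactly 3 tubule UMIs, while 86 and 201 barcodes stayed outside with 2. On the endothelial side, 43 and 23 members lay between 10 and 12 per 10000, and 34 and 16 barcodes with 3 or more tubule UMIs lay between 12 and 14. The genes of the rule, given as a description only, stood in control libraries 1 and 2 at 3376 and 4167 UMIs per 1000000 member UMIs (CPM) for Slc34a1, 1564 and 1871 for Lrp2, 2179 and 1844 for Slc12a1, and 2028 and 2347 for Slc12a3.

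Most tubule barcodes held transcripts of more than 1 segment. A proximal UMI (Slc34a1 or Lrp2) and a distal one (Slc12a1 or Slc12a3) stood in the same barcode in 94.6% of members of control library 1 (93.5 to 95.5) and 82.6% of control library 2 (80.4 to 84.6). Proximal UMIs alone were found in 4.15% (3.34 to 5.10) and 14.7% (12.8 to 16.7), and distal UMIs alone in 1.29% and 2.72%. After each barcode was thinned to 500 UMIs, which leaves 1987 and 803 members, both kinds were found in 78.3% and 70.5%. Proximal UMIs alone were then found in 13.7% and 23.9%. Distal UMIs alone were found in 7.30% and 4.48%, so the direction of that share turned at like depth. These are the genes that admitted the members, so the shares describe the members and do not check the label. Over 20 proximal tubule markers that the rule did not use, members of control library 1 summed to 18953 CPM, against 16468 in the 165 barcodes above the endothelial limit and 13213 in the 147 with fewer tubule UMIs. In control library 2 members summed to 23630, against 4941 in 259 and 12467 in 462 barcodes. Members had the highest sum of the 3 classes in both libraries. The classes were split by tubule and endothelial UMIs, so the rule itself favours this order and it does not check the label.

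**Figure D1:**
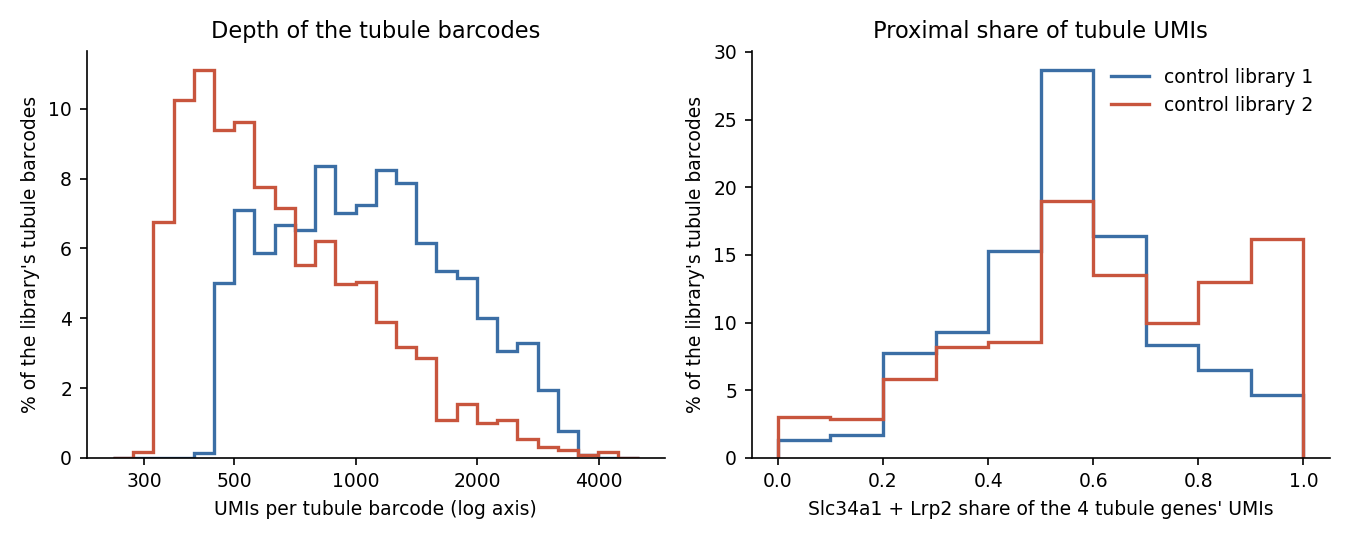
Left, UMIs per tubule barcode on a log axis; right, the share of the 4 tubule genes' UMIs that came from Slc34a1 and Lrp2; each line is 1 control library and the vertical axis is the percent of its tubule barcodes. Control library 2 is shallower (median 577 UMIs against 1048) and has more barcodes at the proximal end.

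Of 11669 genes listed, 9569 had 50 or more UMIs over both libraries and were compared. Each gene's UMIs were summed over a library's members and scaled to that library's member UMIs as CPM. The log2 ratio is control library 2 over control library 1 after adding 5 CPM to each, and the interval beside it is the exact 95% counting interval of the ratio without that addition. A gene counts as past 2-fold at a log2 ratio of 1 or more, or -1 or less. The middle of the distribution lay close to 0, with a median of -0.02, a 5th percentile of -0.50 and a 95th of 0.56. In control library 2, 78 genes were higher by 2-fold or more (0.815% of those compared), and in control library 1, 41 were (0.428%). The counting interval lay above 0 for 844 genes (8.82%) and below 0 for 915 (9.56%).

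The same rule applied to the hypertension tables, tied to their groups by the tables' names, gave 1114 tubule barcodes for angiotensin II and 1240 for salt-sensitive hypertension. The libraries were set against each other over 9340 genes, those with 50 or more UMIs over the control libraries and listed in all 3 tables. The minimum was not asked of the hypertension libraries, so genes found mainly there can be missing. Of these genes, 1.07% were past 2-fold between the control libraries. Between control library 1 and the hypertension libraries the shares were 2.10% for angiotensin II and 0.696% for salt-sensitive hypertension, and from control library 2 they were 2.30% and 1.37%. The hypertension libraries differed from each other at 0.685%. The difference between the controls was thus larger than that of control library 1 from the salt-sensitive library, and smaller than that of either control from the angiotensin II library. These comparisons share libraries and none has a replicate. They were not adjusted for depth or repeated without the few barcodes described below. Median depth of the tubule barcodes was 577 UMIs in control library 2 and 1048 in control library 1. It was 1037.5 in the angiotensin II library and 1171 in the salt-sensitive library.

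**Figure D2:**
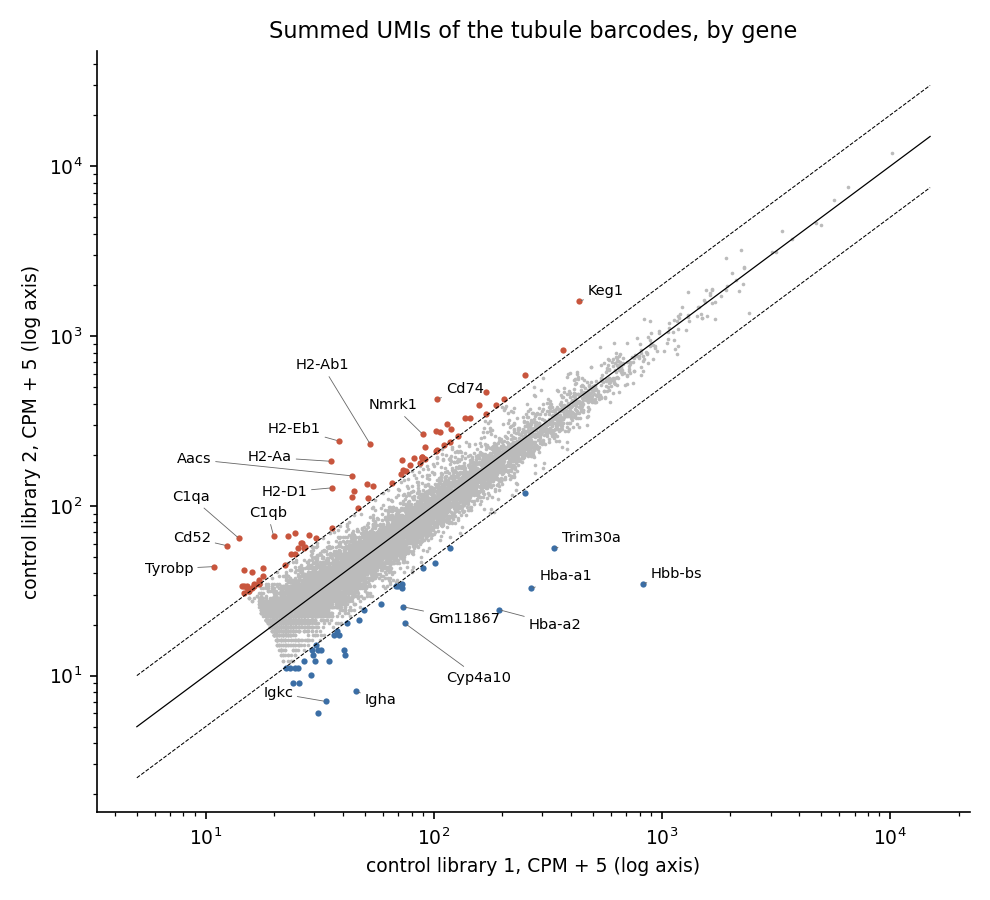
Each point is 1 of 9569 genes, at its CPM plus 5 in the tubule barcodes of control library 1 (horizontal) and control library 2 (vertical), both on log axes. Red points are the 78 genes higher in control library 2 by 2-fold or more, blue points the 41 higher in control library 1; the solid line is equality, the dashed lines are 2-fold, and names mark 20 of the 24 genes with the outermost intervals.

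The most lopsided genes fell into a group held by few barcodes and a group spread over many. The globins were of the first kind. Hbb-bs, a beta globin of red cells, stood at 819 CPM in control library 1 and 29.7 in control library 2, a log2 ratio of -4.57 (-5.37 to -4.26). The alpha globins Hba-a1 (263 and 27.6) and Hba-a2 (189 and 19.4) had ratios of -3.04 and -2.99. A single barcode of control library 1 held 3109 of that library's 3242 member globin UMIs, 88.5% of its own 3513 UMIs, with 3 tubule UMIs, the least the rule admits. Without it, the log2 ratio was 1.31 for Hbb-bs and 0.36 for Hba-a1, so the direction of both turned.

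MHC class II was the counterpart in control library 2. H2-Eb1, a class II beta chain, stood at 33.3 CPM in control library 1 and 236 in control library 2 (log2 ratio 2.65, interval 2.46 to 3.20). H2-Aa, the alpha chain, stood at 30.6 and 178 (2.36), H2-Ab1 at 47.8 and 225 (2.12), and Cd74, the invariant chain that escorts class II molecules, at 98.8 and 420 (2.04). Myeloid genes stood beside them: C1qa, a complement component made by macrophages, was at 9.01 and 59.3 (2.20), and Tyrobp, a signalling adaptor of myeloid cells, at 5.88 and 38.9 (2.01). Of 10 macrophage and dendritic cell markers compared, 10 were above 0 and 9 were past 2-fold, with a median of 2.02 and a range from 0.17 for Csf1r to 2.65.

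The class II UMIs were concentrated in a few barcodes. In control library 2, 8 members with 10 or more class II UMIs held 784 of 1036, and 1 of them held 345. All 8 also had a UMI of another myeloid gene, and ribosomal protein genes made up 16.6% of their UMIs. In control library 1, 2 such members held 102 of 537. A class II UMI of any number was found in 17.1% of members of control library 1 and 14.5% of control library 2, and in 8.45% and 11.3% after thinning to 500 UMIs. The same shares in barcodes above the endothelial limit were 12.7% and 21.6%, at median depths of 689 and 811 UMIs.

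Leaving out these 10 barcodes and the globin one gave a smaller set of differences. Of the 78 genes higher in control library 2, 46 stayed past 2-fold, 7 having fallen under 50 UMIs, and of the 41 higher in control library 1, 37 stayed. The 4 class II genes together then stood at 171 and 261 CPM, a log2 ratio of 0.61 (0.38 to 0.84), and H2-Eb1 alone at 1.24. Fewer than 50 UMIs then remained for C1qa, at 0.14 with an interval across 0 (-1.18 to 1.5), for Tyrobp, at 1.13 (0.61 to 3.21), and for Cd52, a leukocyte surface protein, at 1.88 (1.74 to 4.04). The median of the macrophage markers was 0.61 over the 6 still compared. Barcodes were left out by their class II UMIs, which are in that list, so a fall of those genes was set by the choice. How reads of near-identical genes (the alpha globins, the MHC chains, ribosomal protein genes) were assigned is not stated, so the split within such a family is uncertain.

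**Figure D3:**
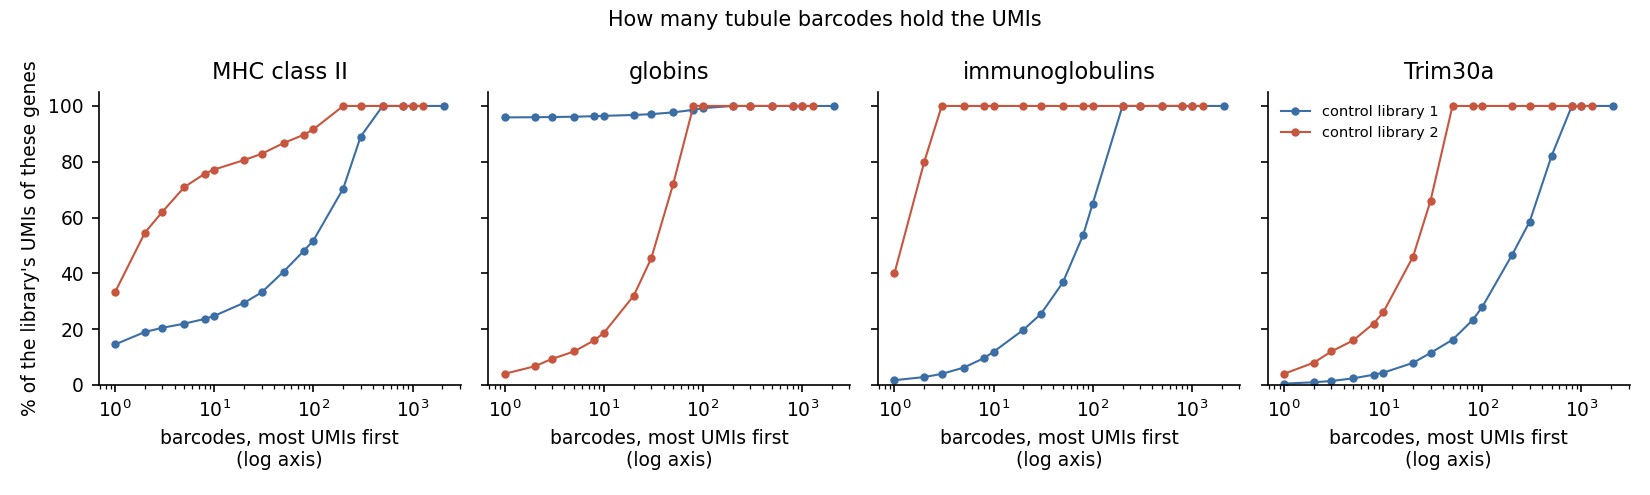
For MHC class II genes, globins, the immunoglobulins Igha and Igkc, and Trim30a, the vertical axis is the cumulative percent of a library's member UMIs of those genes and the horizontal axis the number of barcodes, those with most UMIs first, on a log axis. In control library 1 a single barcode holds over 95% of globin UMIs and in control library 2 a total of 8 hold 75.7% of class II UMIs, while the Trim30a curves climb over many barcodes.

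Trim30a was the outermost gene spread over many barcodes. It encodes an interferon-inducible tripartite-motif protein and lies at chr7:104409025-104465193 on the minus strand (GRCm38, GENCODE M21), with the promoter shown above. It stood at 332 CPM in control library 1 (310 to 355) and 51.1 in control library 2 (38.0 to 67.4), a log2 ratio of -2.58 (-3.14 to -2.28). A Trim30a UMI was found in 31.1% and 3.65% of members, and no member held more than 4. Barcodes above the endothelial limit, which the rule left out, gave 570 and 158 CPM in control libraries 1 and 2. These barcodes were not alike in the libraries. In the same order their proximal tubule markers summed to 16468 and 4941 CPM, and their endothelial markers to 3456 and 16060. Whether Trim30a differed between like endothelial cells was therefore not tested. Trim30a stood at 35.7 in tubule barcodes of the angiotensin II library and at 173 in those of the salt-sensitive library. Control library 1 was thus the highest of the 4.

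Its neighbours did not all go with it. Trim12c, of the same gene cluster, stood at 41.9 and 16.4 (-1.14, interval -2.22 to -0.59) and Trim5 at 19.6 and 8.18 (-0.90). Trim12a, which lies between those genes, was at 45.1 and 34.8 (-0.33, with an interval across 0). The 11 other interferon-response genes compared had a median of -0.06, with 7 below 0, a range from -0.23 to 0.67 and none past 2-fold. Rsad2, an antiviral enzyme of that response, stood at 61.1 and 53.2. Over the genome, 7 of the 40 placed genes higher in control library 1 (17.5%) had another such gene within 1 Mb, against 4.53% of all compared genes, and all 7 belonged to the globin, Cyp4a or Trim clusters. In the other direction it was 17 of 78 (21.8%) against 11.7%, among them the class II genes, H2-K1 and H2-D1 of the MHC region. In the higher library, the globin genes among the 7 and the class II genes among the 17 drew most UMIs from few barcodes. The neighbour counts were not repeated without the 11 barcodes.

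Among the members, immunoglobulin constant-region genes were detected almost wholly in control library 1. Igha, of the IgA heavy chain, had 104 UMIs there and 3 in control library 2, or 40.8 and 3.07 CPM (interval of the log2 ratio -6.03 to -2.14). Igkc, of the kappa light chain, had 73 and 2 UMIs, or 28.6 and 2.05 CPM (-6.88 to -1.90). They were thinly spread, with 162 barcodes of control library 1 holding 1 to 3 UMIs of the pair and 3 barcodes of control library 2 doing so. In barcodes above the endothelial limit the share with such a UMI was 3.64% in control library 1 against 7.74% of its members, and 0 of 259 in control library 2, which allows a share of up to 1.16%, taking 3 counts as the limit of a count of 0. Among barcodes with fewer tubule UMIs the share was 4.08% in control library 1 (1.51 to 8.67). It was 1.30% in control library 2 (0.478 to 2.81). This was the direction of the members, though the intervals overlapped. After thinning these shares were 3.42% and 3.59%. By CPM the direction was the opposite, with Igha and Igkc together at 200 in control library 1 and 271 in control library 2. Few barcodes set those sums: 2 held 18 of the 22 UMIs in control library 1, and 4 held 88 of the 90 in control library 2. The salt-sensitive library had Igha at 89.0 and Igkc at 64.5 CPM in its tubule barcodes, and neither gene is listed in the angiotensin II table.

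Keg1, which encodes an acyltransferase-like protein of the kidney, was the most abundant gene past 2-fold in either direction. It stood at 430 CPM in control library 1 and 1597 in control library 2, a log2 ratio of 1.88 (1.78 to 2.01). It was detected in 38.4% and 59.1% of members, and in 19.3% and 52.3% after thinning to 500 UMIs. Barcodes above the endothelial limit had it in 23.6% and 32.4%, at 349 and 332 CPM, where the sums of the 20 proximal markers, Keg1 among them, were 16468 and 4941. Barcodes with fewer tubule UMIs had Keg1 at 300 and 805 CPM, so control library 2 was the higher there too. The angiotensin II and salt-sensitive libraries stood at 349 and 663, both under control library 2.

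Further genes were higher in control library 2 and spread over many barcodes. Aacs, which activates acetoacetate for lipid synthesis, stood at 38.8 and 145 (1.78), with 34.3 and 54.1 in the angiotensin II and salt-sensitive libraries. Nmrk1, the kinase that starts NAD synthesis from nicotinamide riboside, stood at 84.7 and 259 (1.56), with 92.0 and 106 in the hypertension libraries. For both genes control library 2 was the highest of the 4. Cndp2, a cytosolic dipeptidase, stood at 247 and 587 (1.24), Lpl, the lipase of triglyceride-rich lipoproteins, at 153 and 390 (1.32), and Itgb6, an epithelial integrin subunit, at 363 and 825 (1.18).

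In the other direction stood Cyp4a10, a fatty acid hydroxylase that responds to PPAR alpha, at 69.8 and 15.3 CPM (-1.88, interval -3.05 to -1.42). Its relative Cyp4a31 stood at 113 and 51.1 (-1.07). The hypertension libraries had Cyp4a10 at 85.2 and 51.5, nearer to control library 1. The wider list of fatty acid oxidation genes and PPAR alpha targets did not lean with them: 7 of 19 were above 0 and 12 below, with a median of -0.06. Acsm3, a medium-chain acyl-CoA synthetase of that list, went the opposite way at 102 and 268 (1.36). Egr1, an immediate early transcription factor, stood at 96.4 and 40.9 (-1.14) while Fos, of the same response, stood at 9.80 and 28.6 (1.18), and without the 11 barcodes at 9.82 and 17.6 (0.61, interval -0.14 to 1.79). Dcc, a netrin receptor, had 67 UMIs in control library 1 and 1 in control library 2 (interval of the log2 ratio -10.01 to -2.15). Casp4, an inflammatory caspase, stood at 35.7 and 8.18 (-1.63).

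**Figure D4:**
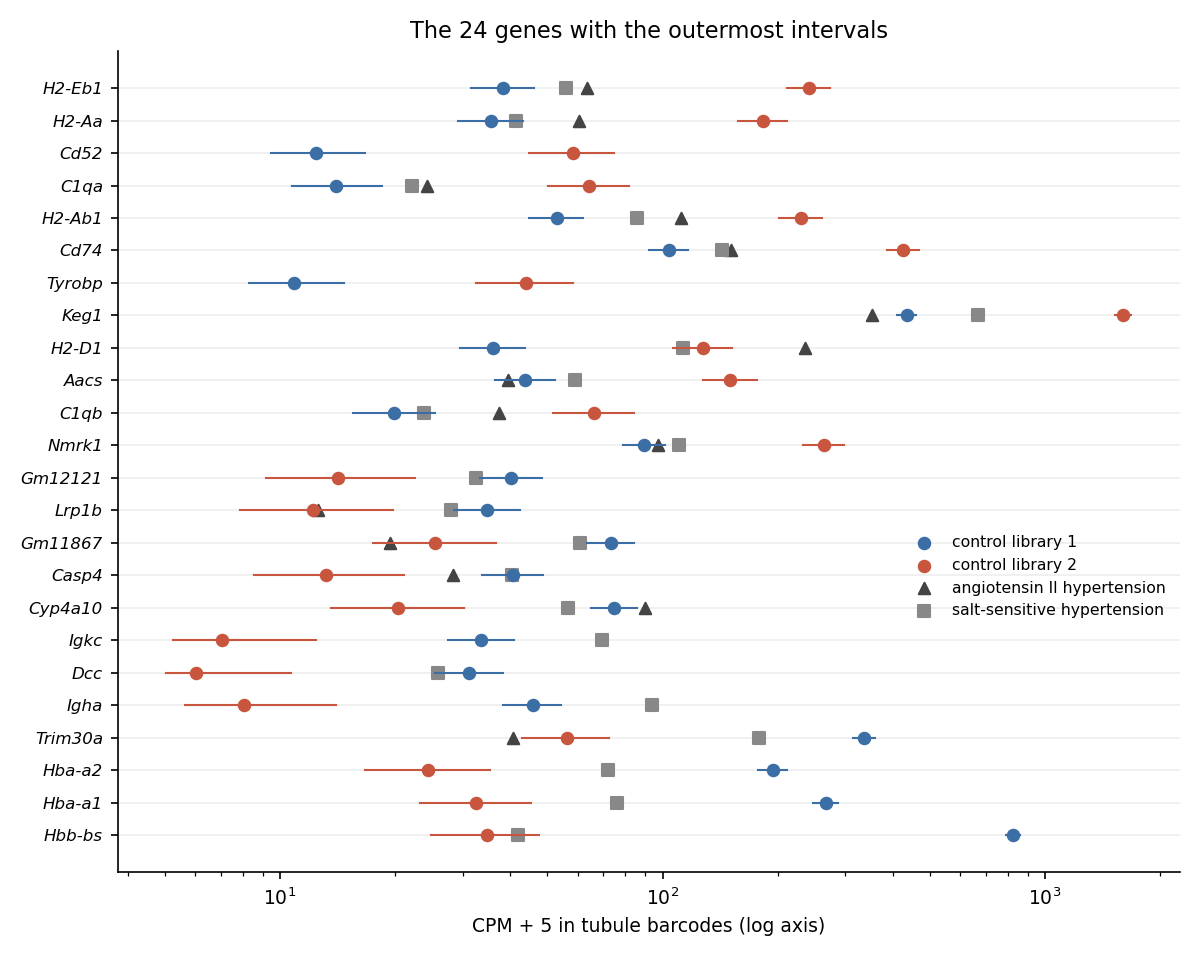
The 12 genes with the highest lower bound and the 12 with the lowest upper bound of the counting interval, at their CPM plus 5 in tubule barcodes, on a log axis; circles are the control libraries with 95% counting intervals and triangles and squares the hypertension libraries, absent where a gene is not listed. Control library 2 is the highest of the 4 for Keg1, Aacs and Nmrk1, and control library 1 for Trim30a.

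The 34 gene lists place these genes among their pathways, and of all compared genes 47.5% were above 0 and 52.5% below. Cytosolic ribosomal protein genes leaned furthest among the large lists: 79 of 80 were above 0, with a median of 0.75 and a sum of 9308 CPM in control library 1 and 15776 in control library 2. Of them 18 were past 2-fold upward, against 0.815% of all compared genes, with Rps27 the furthest at 109 and 298 (1.40). Without the 11 barcodes the median was 0.63 and 6 were past 2-fold. Among barcodes of 500 to 1000 UMIs the sums were 8520 and 12616, so the direction was the same at like depth, and between 1000 and 2000 UMIs they were 8717 and 11000. The 44 barcodes of control library 2 with 2000 or more UMIs summed to 44287, against 10984 in the 275 of control library 1. In those deep barcodes the macrophage and dendritic cell markers summed to 6987 and 256 CPM in the same order. Ribosomal protein genes were also more abundant outside the members, at 92475 CPM in barcodes above the endothelial limit and 103946 in those with fewer tubule UMIs of control library 2, and at 27534 and 65321 in control library 1. The part of such transcripts in the members' difference was not tested. Nuclear-encoded genes of oxidative phosphorylation leaned less, with 32 of 38 above 0, none past 2-fold and a median of 0.20. Nuclear-retained RNAs did not lean (median -0.02 over 5), with Neat1 at 4724 and 4645.

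Proximal tubule genes were somewhat higher in control library 2. Of 20 markers of the whole segment 16 were above 0 with a median of 0.22, and Keg1 was the only one past 2-fold. Gpx3, the secreted glutathione peroxidase, stood at 6531 and 7591, and Gatm, which makes the creatine precursor, at 194 and 376 (0.94). Slc13a3, a dicarboxylate transporter, was lower at 589 and 402 (-0.55). Genes of the early segments had a median of 0.43, though of -0.03 in barcodes with 1000 or more UMIs: Slc5a2, the glucose transporter SGLT2, stood at 163 and 310 (0.91), Slc7a7, a basolateral amino acid transporter, at 113 and 233 (1.01), and Slc34a3, a phosphate transporter, at 12.1 and 30.7 (1.06). The organic anion transporter Slc22a6 went the other way, at 221 and 150 (-0.54). Genes of the late segment had a median of 0.10. Abcc2, an apical export pump of the proximal tubule chosen after its values were seen, stood at 2408 and 1369 (-0.81).

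The androgen-responsive list also stood higher in control library 2, with 11 of 12 above 0 and a median of 0.46. Kap, the kidney androgen-regulated protein, stood at 2224 and 3201 (0.52), Odc1, which starts polyamine synthesis, at 103 and 212 (1.0), and Cyp7b1, an oxysterol hydroxylase, at 271 and 496 (0.86). Acsm3, which is in this list too, was the only member past 2-fold. The Y-linked genes lay between -0.10 for Ddx3y and 0.30 for Kdm5d, each with an interval across 0. The list was chosen as background on the male proximal tubule and no hormone was measured.

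Distal segments differed among themselves. All 8 distal convoluted tubule genes compared were above 0, with a median of 0.44, none past 2-fold, and Trpm6, a magnesium channel, at 121 and 207 (0.74). In barcodes with proximal rule UMIs only, the median of the genes of this list still compared was -0.87. That setting leaves out every barcode with an Slc12a1 or Slc12a3 UMI and compared only 645 genes in all. The thick ascending limb list had a median of 0.05, with Umod, the secreted uromodulin, at 279 and 341 and Egf at 660 and 648. Intercalated cell genes leaned to control library 1, with 6 of 7 below 0 and a median of -0.18 (0.0022 after thinning to 500 UMIs). Only 1 of their intervals lay below 0, that of Slc26a4, and 1 lay above, that of the gene at 0.67. Slc26a4, the chloride and bicarbonate exchanger pendrin, stood at 215 and 111 (-0.92, interval -1.26 to -0.65). Principal cell genes were mixed (median 0.11), with Aqp2, the vasopressin-regulated water channel, at 75.2 and 155 (1.0) and Tfcp2l1, a collecting duct transcription factor, at 430 and 287 (-0.57).

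MHC class I genes were higher in control library 2, at a median of 0.91 with 6 of 7 above 0 and 3 past 2-fold. H2-D1, a class I heavy chain, stood at 31.0 and 123 (1.83), H2-K1 at 83.5 and 185 (1.10) and B2m, the light chain, at 41.5 and 92.1 (1.06). Leaving out the 11 barcodes gave a median of 0.83, H2-D1 at 1.56 and 1 gene past 2-fold. The median of the genes still compared was 0.22 in barcodes of 500 to 1000 UMIs and 1.20 in those of 1000 or more. In barcodes above the endothelial limit H2-D1 stood at 306 and 2679, so it was abundant in endothelial barcodes of control library 2. In that library the endothelial marker list summed to 1378 in members and 16060 above the limit, and in control library 1 to 1422 and 3456. Whether transcripts of other cells entered the tubule barcodes was not tested.

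Several lists had medians close to the median of all genes. The circadian clock list had a median of -0.00, the corticosteroid-responsive list 0.02, sodium and potassium transport 0.04, gluconeogenesis and glycolysis 0.10, stroma -0.02 and endothelium -0.02. The rule capped endothelial UMIs in members of both libraries, which limits what the endothelium median can show. A median can hide a split: of 17 gluconeogenesis and glycolysis genes 13 were above 0 and 4 below. Without the 11 barcodes Pck1 stood at 179 and 87.9 (-0.98), G6pc at 273 and 153 (-0.81) and Gapdh at 55.8 and 88.9 (0.63). The renin-angiotensin and peptidase list had a median of -0.02, with Agtr1a, the angiotensin II receptor, at 102 and 118 (0.20, interval -0.12 to 0.53). NRF2 targets and glutathione genes stood higher in control library 2 at a median of 0.27, with 8 of 17 intervals above 0 beside 8.82% of all compared genes. None was past 2-fold, with the ferritin chains Fth1 at 419 and 593 and Ftl1 at 418 and 606. Heat shock genes were at -0.25 and split, with 7 of 14 intervals below 0, beside 9.56% of all compared genes, and 2 above. Intervals are narrower for genes with more UMIs, and the shares of all compared genes were not matched to either list's abundance. Hsp90ab1, a constitutive chaperone, stood at 339 and 237 (-0.50), while the inducible Hspa1a stood at 21.2 and 55.2 (1.2, and 0.95 without the 11 barcodes). The tubule injury list was split, with 4 of 8 genes above 0 and 4 below, a median of 0.15 and a lowest ratio of -0.46. Its median was -0.13 without barcodes holding a myeloid UMI. The highest members were Spp1, the secreted osteopontin, at 40.0 and 83.9 (0.98) and Clu, the chaperone clusterin, at 30.2 and 64.4 (0.98).

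**Figure D5:**
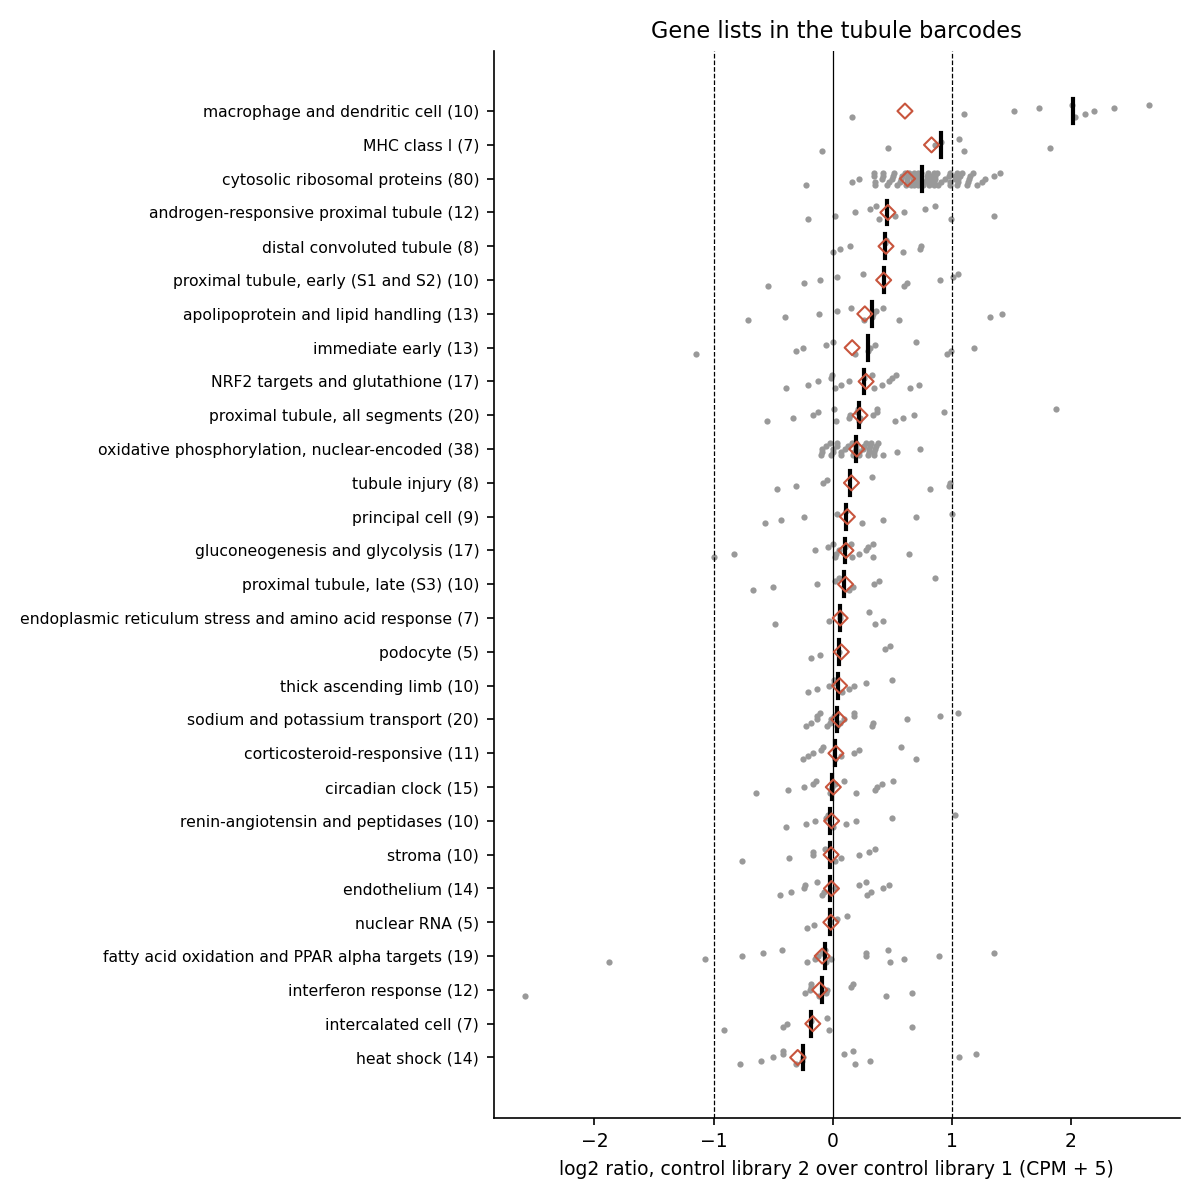
Each row is a gene list with the number of genes compared in brackets; grey points are its genes at their log2 ratio of control library 2 over control library 1, the black bar is the list's median and the open diamond the median without the 11 barcodes rich in class II or globin UMIs. Dashed lines mark 2-fold. The macrophage median moves from 2.02 over 10 genes to 0.61 over 6, a list that holds the class II genes by which barcodes were left out. The ribosomal median moves from 0.75 to 0.63.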

How the data were processed

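Libraries were made with a droplet 3′ kit, per the labels' protocols, and were processed with Cell Ranger 7.0.0, Seurat 4.1 and build mm10, per the submitters' processing notes, which assign no roles. What the authors deposited are unnormalized UMI counts, 1 row a gene and 1 column a barcode, and 0 columns went unmapped. No source used here says if depth was equalised when the control libraries were merged. Doublets were not removed here. UMIs of members were summed by library, and ratios, exact binomial and Poisson intervals and thinning (seed 1) used Python 3.11.15 with numpy 2.4.6, scipy 1.17.1 and pandas 2.3.3. The interval code was tested on simulated data. TMM scaling from edgeR 4.0.16 (R 4.3.3) served only as an alternative. Gene positions came from GENCODE M21 (GRCm38), with 11569 of 11669 symbols matched, and promoters from RefSeq. Named genes were the 12 with the highest lower and the 12 with the lowest upper interval bound and, in each list, the 4 most abundant and any furthest gene past 2-fold; other genes given in the text were added after their values were seen. The members, lists and rules were chosen with earlier results of these data known.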

Additional observations from a re-analysis of the deposited data

How the results depend on the processing

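No paired analysis was possible because each side is 1 library. Of 17 alternatives, 5 were added after seeing the data. The number of genes higher by 2-fold in control library 2 and in control library 1 was 118 and 75 with 1 CPM added, 37 and 9 with 20 added, 43 and 10 among genes with 200 or more UMIs, and 29 and 15 in barcodes with proximal rule UMIs only, where 645 genes and 87 and 189 barcodes remained. Barcodes of 1000 or more UMIs gave 97 in control library 1. In control library 2 the number was 45 without barcodes holding a myeloid UMI, 48 in barcodes of 500 to 1000 UMIs, 48 without the 11 barcodes, and 46 after thinning with each gene counted once per barcode. The share of called genes that were higher in control library 2 was 65.5%, and from 47.9% to 81.1% over the alternatives.

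The member share in control libraries 1 and 2 was 78.7% and 60.8% with an endothelial limit of 6, 76.5% and 46.3% with 5 or more tubule UMIs, and 71.3% and 57.5% after thinning. Red cell genes turned direction: the list median was 0.14 with 5 or more tubule UMIs, 0.36 without the globin barcode and 0.37 without the 11 barcodes. Under those settings in that order Hbb-bs was at 1.15, 1.31 and 1.32, and Hba-a1 at 0.44, 0.36 and 0.37. In barcodes of 500 to 1000 UMIs Hbb-bs, Hba-a1 and Hba-a2 were at 0.88, 0.56 and 0.072, and counted once per barcode at 2.05, 0.71 and 0.015. With proximal rule UMIs only Cd74 was at -0.20, Tyrobp at -3.33, C1qb at -0.71 and Fos at -2.82. That setting held only 66247 and 116787 UMIs and no minimum was asked of a gene, so a few UMIs can make such a ratio. Beyond the globin barcode the cause of the turned directions was not tested. Of the 24 outermost genes, 9 stayed past 2-fold in the same direction under all 15 alternatives that applied to them, with no minimum of UMIs asked: Keg1, H2-D1, Aacs, Nmrk1, Trim30a, Igha, Igkc, Cyp4a10 and Gm11867. Of 34 lists, 14 kept the direction of their median under every alternative that gave one.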
